A study of Homo sapiens with 4 samples.

Results

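The promoters of 10 cell cycle genes were examined in ATAC-seq of LNCaP cells, an androgen-sensitive line of human prostate cancer. The genes were CCND1, CCNA2, CCNB1, CDK1, E2F1, PLK1, AURKA, UBE2C, TOP2A and MKI67. A listed peak belonged to the set when its summit, the position with the most sequence tags, lay within 10 kb of the given hg19 start site. This rule took 23 of the 191905 peaks of the vehicle list and 24 of the 161535 peaks of the GSK2879552 list on chromosomes 1 to 22, X and Y. Cells of both conditions were LNCaP, kept in RPMI-1640 with 10% fetal bovine serum per the growth protocol. One group received vehicle. The other received GSK2879552, which inhibits LSD1 (KDM1A), a demethylase of histone tails. The treatment text, which is the same for all 4 samples, gives RPMI1640 with 5% CSS and 50 µM of the inhibitor over 4 hours. Each condition had 2 sequencing lanes of 1 library and 1 pooled peak list, so there was no replicate and no test between conditions. Every interval below covers counting error only.

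Progression through the cell cycle is driven by cyclins that bind cyclin-dependent kinases. Cyclin D acts in G1 and releases E2F transcription factors from the retinoblastoma protein, and E2F factors switch on genes of DNA synthesis. Cyclins A and B with CDK1 carry cells through G2 and mitosis. Many genes expressed in G2 and mitosis share a promoter layout of CCAAT boxes, bound by NF-Y, and a CHR element, bound by the DREAM and MuvB complexes. Active promoters usually lack nucleosomes around the start site. ATAC-seq shows such stretches as peaks, since its transposase inserts adapters into accessible DNA.

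The sequences upstream of 6 of the genes are shown so that the motifs counted below can be read in place. RefSeq windows (GRCh38.p14, 250 bases before to 50 after a start) were matched for 7 of the 10 genes: CDK1, which has 2 starts and is not shown, and the 6 genes printed here. CCND1, AURKA and UBE2C had no entry. Each run is the 250 bases before the start, read 5′ to 3′ on the strand of the gene, and capitals mark CCAAT, CHR-type and E2F-type words on either strand. Positions of this build were not set against the hg19 peaks.
CCNA2, chr4:121823884-121824133, minus strand: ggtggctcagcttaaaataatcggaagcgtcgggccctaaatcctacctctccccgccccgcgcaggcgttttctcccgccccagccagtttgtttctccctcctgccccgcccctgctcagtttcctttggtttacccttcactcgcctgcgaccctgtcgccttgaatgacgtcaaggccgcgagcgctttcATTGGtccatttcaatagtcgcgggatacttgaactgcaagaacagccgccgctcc
CCNB1, chr5:69166900-69167149, plus strand: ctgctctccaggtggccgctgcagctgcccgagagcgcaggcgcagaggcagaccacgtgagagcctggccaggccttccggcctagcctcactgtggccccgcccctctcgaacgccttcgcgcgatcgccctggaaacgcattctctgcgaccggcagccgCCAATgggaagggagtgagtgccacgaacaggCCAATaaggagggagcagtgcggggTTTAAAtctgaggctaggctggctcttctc
PLK1, chr16:23678639-23678888, plus strand: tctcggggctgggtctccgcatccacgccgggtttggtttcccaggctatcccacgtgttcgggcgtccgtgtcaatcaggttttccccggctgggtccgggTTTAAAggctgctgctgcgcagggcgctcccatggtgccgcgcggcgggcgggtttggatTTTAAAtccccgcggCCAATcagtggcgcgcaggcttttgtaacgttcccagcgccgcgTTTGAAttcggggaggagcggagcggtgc
E2F1, chr20:33686386-33686635, minus strand: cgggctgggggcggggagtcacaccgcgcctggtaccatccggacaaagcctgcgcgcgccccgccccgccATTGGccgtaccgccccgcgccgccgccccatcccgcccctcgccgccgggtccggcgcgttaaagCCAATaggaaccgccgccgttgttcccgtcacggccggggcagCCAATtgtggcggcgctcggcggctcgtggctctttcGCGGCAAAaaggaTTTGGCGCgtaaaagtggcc
TOP2A, chr17:40417897-40418146, minus strand: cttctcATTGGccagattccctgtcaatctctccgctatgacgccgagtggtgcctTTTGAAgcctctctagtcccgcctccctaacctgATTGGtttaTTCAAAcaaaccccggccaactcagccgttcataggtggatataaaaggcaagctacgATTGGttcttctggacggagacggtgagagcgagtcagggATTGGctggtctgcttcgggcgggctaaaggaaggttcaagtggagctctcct
MKI67, chr10:128126424-128126673, minus strand: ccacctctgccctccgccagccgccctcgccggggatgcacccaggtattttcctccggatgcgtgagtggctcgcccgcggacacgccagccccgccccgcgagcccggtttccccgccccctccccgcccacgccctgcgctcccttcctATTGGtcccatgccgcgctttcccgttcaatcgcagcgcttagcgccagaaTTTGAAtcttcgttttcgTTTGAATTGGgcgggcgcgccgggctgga

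CCAAT was found in the windows of all 7 genes, while 34.6% of the 35116 RefSeq windows of this length held it. TOP2A held 4 copies, E2F1 3, CCNB1 and MKI67 2 each, and CCNA2 and PLK1 1 each. CDK1 held 1 in the window of its first start and 2 others in that of its second. The CHR-type words TTTGAA and TTTAAA were found for 5 of the 7 genes, CDK1, CCNB1, PLK1, TOP2A and MKI67, against 24.0% of all windows. Other forms of the CHR element were not searched, so CCNA2 and E2F1 lack these words but not necessarily a CHR. In CCNB1 the word TTTAAA began 30 bases before the start, and in PLK1 and MKI67 the word TTTGAA began 29 bases before it. In MKI67 this last word overlapped a CCAAT on the other strand by 1 base. E2F-type words (TTTCCCGC, TTTGGCGC, TTTCGCGC and TTTGCCGC) were found for E2F1, with 2, and for CDK1, with 1 that lies in both of its overlapping windows, against 3.31% of all windows. The GC box GGGCGG was present in all 7 genes, with 9 copies in MKI67 and 6 in E2F1, and in 45.0% of all windows. These matches describe letters and not bound sites.

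All 10 start sites lay inside a listed peak with vehicle, and 9 of 10 did so with GSK2879552. The exception was MKI67. The strongest peak within 1 kb of each start, called the start-site peak here, carried 73 to 105 tags at its summit with vehicle and 54 to 91 tags with GSK2879552. It ranked high in its own list at each gene. At most 5.30% of all vehicle peaks and at most 8.60% of all GSK2879552 peaks had more tags. These peaks had a median width of 609.5 bp and 570.5 bp, where the median over each list was 189 bp and 171 bp. Strong peaks over the genome were wide as well. Paired peaks with 100 or more tags over both lists, defined below, had medians of 503 bp and 422 bp. For 6 of the 7 genes with a RefSeq strand, the vehicle summit lay upstream of the start, by 38 bp in CCNA2 to 376 bp in MKI67. The summit of CCNB1 lay 30 bp downstream.

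**Figure D1:**
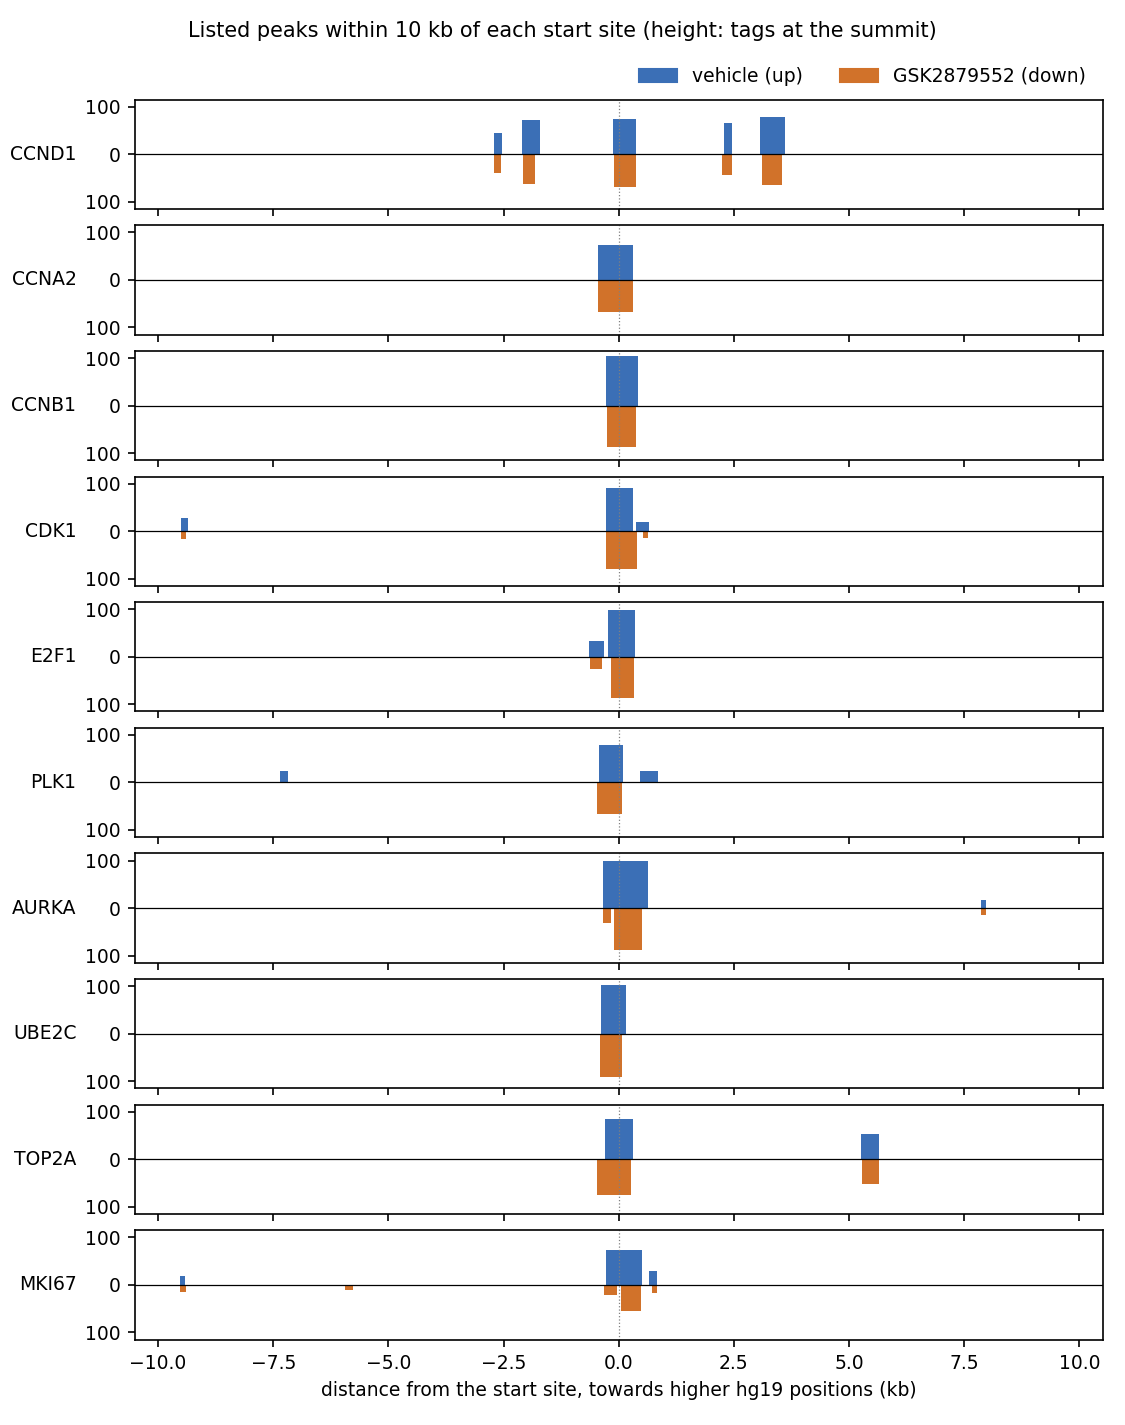
Listed peaks within 10 kb of the 10 start sites, placed by distance from the start towards higher hg19 positions (kb); bar width is the peak width and bar height the tags at the summit, vehicle upwards and GSK2879552 downwards. CCND1 has 5 peaks in both lists, while at PLK1 a single GSK2879552 peak faces 3 vehicle peaks.

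Tags were recovered from the authors' fold enrichment and −log10 p of each peak. The GSK2879552 library was deeper, with a genome-wide background of 2.72 tags against 2.31, and GSK2879552 tags were divided by 1.18 where a ratio is called scaled. The paired peaks used for comparison are those that overlap exactly 1 peak of the other list. Their 110134 pairs over the genome had a median scaled ratio of GSK2879552 to vehicle of 0.680. The 18448 pairs with 100 or more tags over both lists had a median of 0.705 (5th to 95th percentile 0.583 to 0.851). All 10 start-site peaks reached that number of tags, but those of CDK1, AURKA and MKI67 overlapped more than 1 peak and are not among the pairs. With 1 library per condition, the treatment and a difference between the libraries cannot be told apart.

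Fewer tags were found with GSK2879552 at all 10 start-site peaks, before scaling and after it. The same order before scaling held for 94.7% of the pairs with 100 or more tags. Summed over the genes, 882 vehicle and 764 GSK2879552 tags stood at a ratio of 0.737 after scaling (0.668 to 0.813, exact binomial 95%), and the median over the genes was 0.749. Among pairs with 100 or more tags, the median ratio rose with tags, from 0.680 at 100 to under 120 to 0.738 at 180 to under 200. That class includes many pairs with fewer tags than these 10 peaks. The exact interval lay below 1 at 2 of the 10, CCNB1 and MKI67, where 51.1% of pairs with 100 or more tags had such an interval. At the other 8 genes the difference was not detectable at this depth. The single ratios of all 10 genes, between 0.621 and 0.783, stood within the range of other strong peaks. Counting every gene by the summit nearest to its start, the rule set for these peaks, gave the same values except at MKI67, described below.

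**Figure D2:**
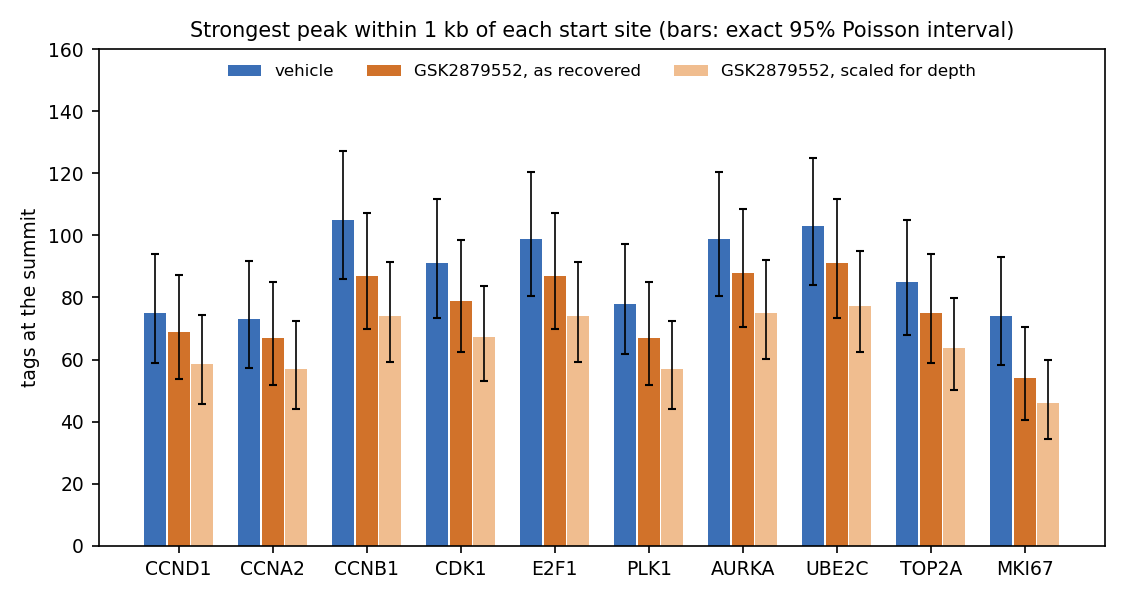
Tags at the summit of the strongest peak within 1 kb of each start site, for vehicle, for GSK2879552 as recovered and for GSK2879552 divided by 1.18; error bars are exact 95% Poisson intervals. The GSK2879552 bar is the lower one for each gene, with vehicle at 73 to 105 tags and GSK2879552 at 54 to 91 tags.

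Among the cyclins and their kinase, CCNB1, the mitotic cyclin (hg19 start at chromosome 5, 68462837), had the most vehicle tags of the 10 genes. Its peak at 68462562 to 68463248 carried 105 tags with vehicle and 87 with GSK2879552, a scaled ratio of 0.705 (0.524 to 0.945). CCNA2, the cyclin of S phase and G2 (chromosome 4, 122745088), had 73 tags with vehicle and 67 with GSK2879552, a ratio of 0.781 (0.552 to 1.10). Neither gene had another listed peak within 10 kb in either list. The peak of CCNA2, 122744631 to 122745402, was 772 bp wide with vehicle and 763 bp with GSK2879552.

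CDK1, the kinase that cyclin B activates (chromosome 10, 62538211), had 91 tags with vehicle and 79 with GSK2879552 at 62537933 to 62538519, a ratio of 0.738 (0.539 to 1.01). Its GSK2879552 peak was wider, 676 bp against 587 bp, and reached into a weaker vehicle peak whose summit lay 567 bp downstream of the start. That peak had 19 tags with vehicle and the matching GSK2879552 peak 14. A further region lay 9422 bp upstream, at 62528702 to 62528860. It had 28 tags with vehicle and 16 with GSK2879552, a ratio of 0.486 (0.246 to 0.930), the lowest of the pairs near these genes. The median over all pairs with 40 to under 50 summed tags was 0.638, with a 5th percentile of 0.440.

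CCND1, the cyclin D of G1 (chromosome 11, 69455873), stood apart from the other genes by its surroundings. It was the only gene of the set with 5 peaks in each list, and their vehicle summits reached from 2627 bp on the side of lower coordinates to 3349 bp on the other. The start-site peak, 69455738 to 69456245, had 75 tags with vehicle and 69 with GSK2879552, a ratio of 0.783 (0.556 to 1.10), the highest of the start-site peaks. Its fold enrichment in the authors' lists was 4.16 with vehicle and 4.31 with GSK2879552, over local backgrounds of 17.3 and 15.3 tags. CCNB1 had folds of 16.1 and 12.7 over backgrounds of 5.59 and 5.92 tags. On the side of lower coordinates, 2 regions had 46 and 73 vehicle tags against 40 and 62 with GSK2879552. On the other side the region at 69458941 to 69459472 had 78 tags against 65, a ratio of 0.709 (0.502 to 0.998).

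The remaining CCND1 region, 69458150 to 69458332, had the widest gap. It carried 66 tags with vehicle and 43 with GSK2879552, a ratio of 0.554 (0.368 to 0.826). Its neighbours on both sides, including the start site, had ratios of 0.709 to 0.783, and all of their intervals overlap this one. Of all 6757 pairs with 100 to under 120 summed tags, the 5th percentile was 0.558, so this region was among the lower ones of its class.

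E2F1, a transcription factor that activates genes of DNA synthesis (chromosome 20, 32274210), had 99 tags with vehicle and 87 with GSK2879552 at 32273968 to 32274572, a ratio of 0.747 (0.554 to 1.01). A second E2F1 peak had its summit 544 bp downstream of the start, with 33 tags with vehicle and 26 with GSK2879552, a ratio of 0.670 (0.385 to 1.16). Both peaks were present in both lists, and both were narrower with GSK2879552.

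Among the regulators of mitosis, UBE2C and AURKA were near the top of both lists' order. UBE2C, the ubiquitin-conjugating enzyme of the anaphase-promoting complex (chromosome 20, 44441255), had 103 tags with vehicle and 91 with GSK2879552 at 44440867 to 44441403, a ratio of 0.751 (0.561 to 1.01). It was the gene's single peak. AURKA, the kinase of centrosome maturation and spindle assembly (chromosome 20, 54967351), had 99 tags with vehicle and 88 with GSK2879552, a ratio of 0.756 (0.561 to 1.02). The vehicle list held AURKA as 1 region of 990 bp, 54967003 to 54967992. The GSK2879552 list held 2 regions there, of 160 bp with 31 tags and of 614 bp with 88 tags. A weak region with its summit 7903 bp away had 16 and 15 tags.

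PLK1, the polo-like kinase of mitotic entry and exit (chromosome 16, 23690201), had 78 tags with vehicle and 67 with GSK2879552 at 23689776 to 23690300, a ratio of 0.731 (0.519 to 1.03). It was the one gene of the set that had fewer peaks with GSK2879552, 1 against 3. A vehicle region 7252 bp upstream, 23682852 to 23683029, had 24 tags, and another with its summit 764 bp downstream, 23690668 to 23691058, had 25 tags. The nearest GSK2879552 peaks lay 6710 bp and 403 bp from them. Tags at these positions in the GSK2879552 library are not given by its list. Of all vehicle peaks with 20 to under 30 tags, 69.7% had a partner in the GSK2879552 list.

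TOP2A, the topoisomerase that untangles replicated chromosomes (chromosome 17, 38574202), had 85 tags with vehicle and 75 with GSK2879552 at 38573893 to 38574506, a ratio of 0.751 (0.543 to 1.04). As in CDK1, its peak was wider with GSK2879552, 738 bp against 614 bp. A distal region 5362 bp upstream, 38579460 to 38579853, had nearly the same tags in both lists, 54 and 52. Its ratio of 0.819 (0.549 to 1.22) was the highest of the pairs near these genes.

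MKI67, which codes for the proliferation marker Ki-67 (chromosome 10, 129924468), had the lowest ratio of the start-site peaks and a changed peak shape. With vehicle 1 region, 129924187 to 129924969, covered the start and had 74 tags at a summit 376 bp upstream. With GSK2879552 there were 2 regions, 129924152 to 129924438 with 21 tags and 129924517 to 129924956 with 54 tags, and the start site lay in the gap between them. The upstream summits of both lists were 2 bp apart and gave a ratio of 0.621 (0.429 to 0.894). Of the pairs with 100 or more tags, 12.8% had a lower ratio. Taking the summit nearest to the start would set 74 vehicle tags against the 21 tags of the downstream part, a ratio of 0.241 (0.141 to 0.396), which compares different parts of the promoter.

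A further MKI67 peak 738 bp upstream had 29 tags with vehicle and 17 with GSK2879552, a ratio of 0.499 (0.257 to 0.938). In the far region 9498 bp downstream, 18 and 16 tags were found. The only GSK2879552 peak of the set with no vehicle partner was also at MKI67, 5926 bp downstream of the start at 129918533 to 129918709, with 11 tags. Split peaks as at AURKA and MKI67 were found at 2 of the 10 start sites, and at 16.5% of the 12229 vehicle peaks with at least 70 tags.

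**Figure D3:**
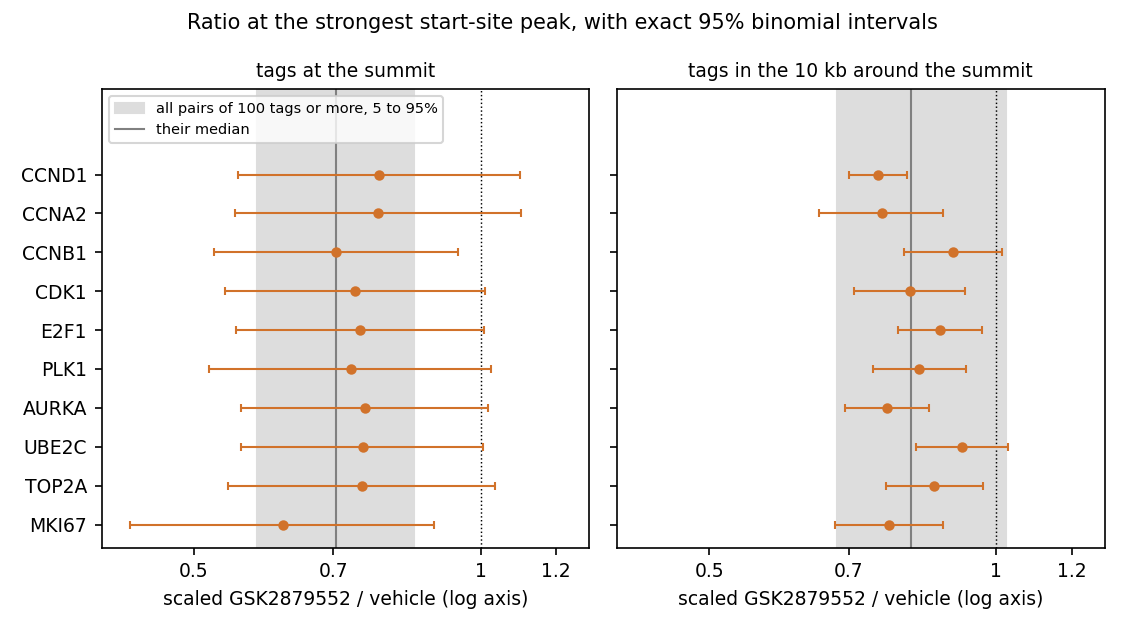
Scaled ratio of GSK2879552 to vehicle (log axis) at the strongest start-site peak of each gene, for tags at the summit (left) and for tags in the 10 kb around it (right), with exact 95% binomial intervals; the band and line give the 5th to 95th percentile and the median of all pairs with 100 or more tags. The summit ratios run from 0.621 at MKI67 to 0.783 at CCND1, all inside the band, and the intervals of CCNB1 and MKI67 end below 1.

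Differences between neighbours in the order of the genes were within counting error. With vehicle the order ran CCNB1, UBE2C, E2F1 and AURKA (equal), CDK1, TOP2A, PLK1, CCND1, MKI67 and CCNA2. The highest was 1.44 times the lowest (exact 95% interval 1.06 to 1.97), and no ratio of neighbours had an interval that left out 1. With GSK2879552 the order ran UBE2C, AURKA, CCNB1 and E2F1 (equal), CDK1, TOP2A, CCND1, CCNA2 and PLK1 (equal) and MKI67, and the highest was 1.69 times the lowest (1.19 to 2.41). The highest and lowest were picked by these same counts, so both intervals tend to lie away from 1. The same 4 genes held the first places of both lists, CCNB1, UBE2C, E2F1 and AURKA.

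The peak lists were alike at these genes. At 7 of the 10 genes the number of peaks within 10 kb was the same in both lists, and in all the GSK2879552 list had 24 peaks against 23. Of the vehicle peaks, 21 of 23 overlapped a GSK2879552 peak, and the 2 that did not were those of PLK1. Over the genome, 38.5% of vehicle peaks had no overlapping GSK2879552 peak. Of the GSK2879552 peaks, 23 of 24 had a vehicle partner, and over the genome 23.5% had none. That share depended on tags. Of all GSK2879552 peaks under 20 tags, 54.9% had a partner, and of those with 20 to under 30 tags 94.7%. Near these genes 5 of 6 and 2 of 2 had one. All 13 vehicle peaks of the set with 60 or more tags had a partner, and so did 99.8% of all vehicle peaks of that strength. The covered length was 10020 bp with vehicle and 8780 bp with GSK2879552, of which PLK1 had 1094 and 527 bp. Over the genome the GSK2879552 list held 84.2% as many peaks, with a median width of 171 bp against 189 bp. At the start-site peaks 7 of 10 were narrower with GSK2879552, with a median width ratio of 0.944, where the pairs with 100 or more tags had 0.891 and 85.7% were narrower. Summits of the 2 lists lay a median of 22.5 bp apart at the start-site peaks and 12 bp apart in that class.

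Near these genes 17 pairs overlapped 1 to 1, of which 9 had the vehicle summit within 1 kb of the start. The start-site peaks of CDK1, AURKA and MKI67 are not among them. All 17 had fewer tags with GSK2879552, before scaling and after it, as did 83.3% and 94.2% of all pairs. The 17 had a median scaled ratio of 0.740, with a range of 0.486 to 0.819. The interval lay below 1 in 5 of the 17, where 26.8% of all pairs had such an interval. The 5 were CCNB1 at the start, MKI67 at 738 bp, CDK1 at 9422 bp and the regions of CCND1 with summits at 2373 and 3349 bp. Among pairs with 100 or more tags, the interval lay below 1 in 3 of 11 near these genes and in 51.1% over the genome. Pairs within 1 kb had a summed ratio of 0.733 (0.655 to 0.820) and those farther away 0.693 (0.595 to 0.808). Most of the 379 vehicle tags of the farther pairs came from CCND1, whose regions there had 46, 73, 66 and 78. Pairs of 1 gene share its surroundings and are not replicates.

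**Figure D4:**
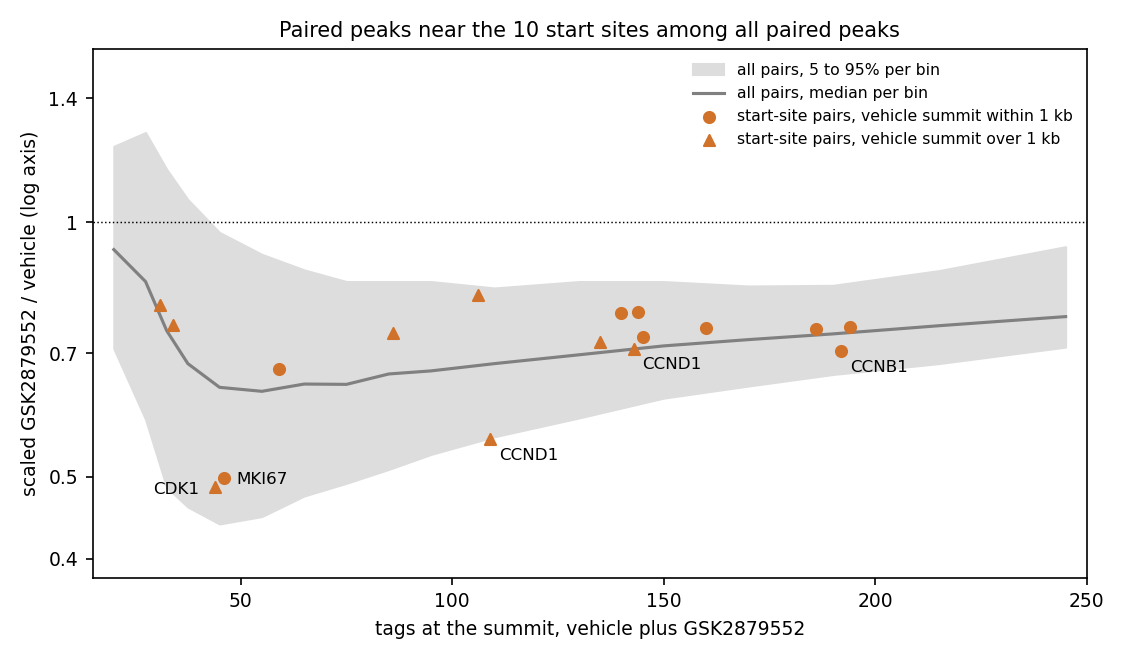
Scaled ratio of GSK2879552 to vehicle (log axis) against the summed tags of both lists for the 17 pairs near the start sites, by whether the vehicle summit lay within 1 kb; the line and band give the median and the 5th to 95th percentile of all pairs per bin of tags. Named points are the 5 whose exact interval lies below 1, and the point of CCND1 at 109 tags, with a ratio of 0.554, lies at the lower edge of the band.

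The local background of a peak, where it exceeds the genome-wide one, is the tag number in the 10 kb around the summit divided by 100, so these numbers could be read as well. They include the tags of the peak itself. The genome-wide level was 231 tags per 10 kb with vehicle and 272 with GSK2879552. CCND1 had 1727 tags with vehicle and 1526 with GSK2879552, or 7.48 and 5.62 times that level. The next were AURKA, with 814 and 735, and E2F1, with 754 and 774. PLK1 had 646 and 631, UBE2C 619 and 670, TOP2A 573 and 580, and CCNB1 559 and 592. MKI67 had 490 and 445, CDK1 457 and 436, and CCNA2, the lowest, 377 and 336.

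Before scaling, 4 of the 10 genes thus had more tags in the 10 kb with GSK2879552, E2F1, UBE2C, TOP2A and CCNB1, although all 4 had fewer at the summit. The other 6 had fewer, as did 62.2% of the pairs with 100 or more summit tags and a 10 kb count in both lists. After scaling, the summed ratio was 0.815 (0.788 to 0.843), nearer to 1 than the 0.737 at the summits. It was 0.836 without CCND1, and the median over the genes was 0.821. The class of pairs with 100 or more tags had a median of 0.813. The interval lay below 1 at 8 of the 10 genes, the exceptions being CCNB1 and UBE2C, and in 73.1% of that class. The ratio was lowest at CCND1, 0.752 (0.701 to 0.806), and highest at UBE2C, 0.921 (0.824 to 1.03), and these intervals do not overlap. Both were picked as the extremes of 10. Pairs in surroundings as dense as CCND1, with at least 1300 vehicle tags, had a median of 0.772, and those with at least 400 had 0.830. Whether the density of tags bears on the ratio at CCND1 was not tested.

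Just inside the limit of 10 kb lay the MKI67 peak with 18 vehicle tags and the CDK1 peak described above. Just outside it lay a UBE2C peak at 10384 bp, with 32 vehicle tags, and its GSK2879552 counterpart at 10363 bp, with 23. In the RefSeq gene order, protein-coding genes neighbour several members closely, among them FAM210B and CSTF1 beside AURKA, EXOSC9 and BBS7 beside CCNA2, DNTTIP1 and TNNC2 beside UBE2C, and DCTN5 and ERN2 beside PLK1. Peaks were not assigned between a member and such a neighbour.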

How the data were processed

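ATAC-seq libraries of vehicle and GSK2879552 cells were deposited as 1 peak list per condition, made from 2 lanes each, and samples were grouped by the agent label. Per the submitters' processing notes, the tools were MACS2 2.1.2, SAMtools 0.1.18 and BWA 0.7.2, their roles and order not stated, and the builds listed were hg19 and GRCh37. The sources used here do not give trimming, duplicate removal or any shift of reads. Each deposited peak has a score, a fold enrichment (a ratio to the caller's background), a −log10 p and a −log10 q, all relative to its own library, and a summit.

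Fold and −log10 p of the deposited lists were solved for the whole number of tags that matches −log10 p within 0.001, found for 100% of rows. Simulated peaks, 4883 of them, were recovered in 100% of cases. They were made with the same formulas, so this checks the solving step only. It does not test whether the deposited columns follow these formulas. The simulated backgrounds stopped below the highest ones at CCND1. The depth of each library is known only as its genome-wide background. Tag numbers have exact Poisson intervals and ratios exact binomial ones, at 95%. Peaks were shared at 1 bp of overlap. A summit within 1 kb of the start defined a start-site peak. The nearest summit was the design's rule. The strongest peak, its listed variant, is used in the text, since the nearest summits at MKI67 are of different parts of the promoter. All 10 genes are named, with distal peaks of at least 30 tags or in 1 list only, and the others by choice after their values were seen. The genes and lists were chosen with earlier results of these data known, and the 10 kb counts after the lists were seen. Other cell cycle genes and markers of the cell line were not analysed here, for want of hg19 positions. Python 3.11.15, NumPy 2.4.6, pandas 2.3.3, SciPy 1.17.1 and Matplotlib 3.10.9 were used.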

Additional observations from a re-analysis of the deposited data

How the results depend on the processing

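No paired analysis was possible because each condition had 1 library, whose lanes are technical replicates, and for the same reason no replicate could be left out. The counts of 23 vehicle and 24 GSK2879552 peaks were 15 and 16 within 2 kb, 18 and 19 within 5 kb, and 23 and 21 among peaks whose −log10 q reached 5, a level that depends on depth. The share of GSK2879552 peaks with a partner, 95.8%, was 100% at that level, 83.3% under a reciprocal overlap of 50% and 87.5% for summits within 250 bp, and the vehicle share, 91.3%, stayed within its interval under these 3 alternatives. Without scaling for depth the ratio of summed tags at the nearest summits, 0.705, was 0.829, the median of the 17 pairs, 0.740, was 0.870, and their summed ratio, 0.719, was 0.845. With the strongest peak the first of these was 0.737, and 0.747 without MKI67. Background subtraction and a correction for 1 tag per position and strand kept both summed ratios within their intervals and gave medians of 0.722 and 0.711, and no ratio crossed 1. At MKI67 the ratio of 0.241 at the nearest summits was 0.621 with the strongest peak. The 10 kb ratio of 0.815 was 0.959 without scaling, 0.725 with the genome-wide background subtracted and 0.836 without CCND1, all 3 chosen after the data were seen. Scaling thus sets most of the distance of the 10 kb ratio from 1. At 73 to 105 tags per summit, single ratios have intervals that reach from 0.429 to 1.10, which limits what can be told apart between genes.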
